A study of Mus musculus with 8 samples.

Results

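Liver zonation genes that depend on Wnt signalling were examined in mice with a mutant Wrn protein. The group was fixed as 10 genes: 8 targets of Wnt signalling in the hepatocytes around the central vein (Glul, Rhbg, Slc1a2, Axin2, Lgr5, Tbx3, Nkd1 and Rnf43) and 2 genes of the hepatocytes around the portal tract (Gls2 and Hal). Array features were assigned to them by gene symbol through the platform's annotation. Of the 10 genes, 9 had a feature, with 18 features in all, among 19087 named genes and 45220 features on the array. Glul had 3 features, Slc1a2 had 5, Lgr5, Tbx3 and Rnf43 had 2 each, and Rhbg, Axin2, Nkd1 and Hal had 1 each. No feature carried the symbol or the Entrez number of Gls2, so Gls2 was not analysed here and Hal alone stands for the periportal side.

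Hepatocytes divide their work along the line from the portal tract to the central vein. Endothelial cells of the central vein secrete Wnt ligands and Rspondins, which keep beta-catenin stable in the nearest hepatocytes and let it act with TCF factors on target genes there. These hepatocytes capture the ammonia that the periportal urea cycle has left over and bind it into glutamine, while periportal hepatocytes break down glutamine and histidine.

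Each of the 8 two-colour Agilent arrays held liver RNA of a Wrn mutant mouse in one dye and liver RNA of a wild type mouse in the other. The first group was vitamin C treated Wrn mutants (4 arrays), the second was Wrn mutants without that treatment (4 arrays), and wild type was the other channel throughout. All animals were of the strain C57Bl/6 and 9 months old, had free access to food and water and lived under a reversed light cycle. The labels name neither the mutant allele nor the sex of the animals, nor the dose and duration of vitamin C. In both groups the mutant RNA carried Cy5 on replicates 1 and 2 and Cy3 on replicates 3 and 4. The labels give both arrays of a replicate number the same wild type number, so the 2 comparisons with wild type share their control animals. The replicates are described as biologically independent, and 4 arrays per group limit the precision.

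The deposited values are log ratios, read here as log2, with array medians between -0.01 and 0.00. They are given without intensities, so neither the levels of the genes nor the presence of hepatocyte markers could be checked. Mutant over wild type is the likely direction, because the series sets mutants against wild type and the titles of the unswapped arrays name the mutant, which is Cy5 there, first. It is not settled: on the swapped arrays the titles name wild type, which is Cy5 there, first, and no source says whether their sign was already turned. The values below are as deposited, a reading taken over from an earlier account of these data, and values with the swapped arrays turned are given beside them. If numerator and denominator were the other way round, every sign below would change. Over all features, arrays of opposite dye orientation, which also differ in wild type number, correlated at r = -0.20 to 0.06. Arrays of the same orientation correlated at r = -0.03 to 0.22 where the wild type number differed and at r = 0.22 to 0.37 where it was shared. In whole liver, fewer pericentral cells and less RNA per cell cannot be told apart.

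Promoter sequence was searched for the letters that TCF factors bind. A RefSeq table of the mouse build GRCm38.p6, with 250 bases before and 50 after each gene's start, matched 6 of the 10 genes with 7 promoters. Those of 4 genes are printed from the plus strand: Glul (chr1:153899679-153899978), Axin2 (chr11:108920099-108920398), Slc1a2 (chr2:102706188-102706487), whose features differed, and the periportal Hal (chr10:93488518-93488817). As deposited, Glul and Axin2 averaged -0.22 and -0.45 over both mutant groups (limma adjusted p = 0.310 for each). Turned, they averaged 0.17 and 0.21. Capitals mark CTTTGA, the core of that motif, or its reverse complement TCAAAG.
Glul: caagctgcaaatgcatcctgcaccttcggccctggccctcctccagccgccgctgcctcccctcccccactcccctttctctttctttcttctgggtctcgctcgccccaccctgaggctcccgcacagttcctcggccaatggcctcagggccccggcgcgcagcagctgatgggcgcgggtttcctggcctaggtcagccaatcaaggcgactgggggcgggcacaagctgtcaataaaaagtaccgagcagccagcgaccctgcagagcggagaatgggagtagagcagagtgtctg
Axin2: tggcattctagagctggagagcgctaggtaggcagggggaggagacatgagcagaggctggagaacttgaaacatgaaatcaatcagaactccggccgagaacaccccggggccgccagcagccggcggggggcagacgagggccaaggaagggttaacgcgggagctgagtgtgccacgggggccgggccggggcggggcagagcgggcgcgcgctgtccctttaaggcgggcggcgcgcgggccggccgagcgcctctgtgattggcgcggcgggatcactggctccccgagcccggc
Slc1a2: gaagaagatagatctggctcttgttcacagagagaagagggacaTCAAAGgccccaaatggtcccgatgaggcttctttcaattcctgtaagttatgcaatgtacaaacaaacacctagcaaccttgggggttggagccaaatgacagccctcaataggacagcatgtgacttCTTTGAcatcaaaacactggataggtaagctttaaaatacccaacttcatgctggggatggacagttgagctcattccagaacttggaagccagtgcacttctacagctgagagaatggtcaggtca
Hal: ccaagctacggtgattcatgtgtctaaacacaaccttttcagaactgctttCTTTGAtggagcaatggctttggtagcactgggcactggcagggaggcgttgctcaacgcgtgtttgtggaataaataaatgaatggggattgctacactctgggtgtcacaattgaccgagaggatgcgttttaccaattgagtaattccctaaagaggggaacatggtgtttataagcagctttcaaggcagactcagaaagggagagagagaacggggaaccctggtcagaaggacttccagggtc
The letters were found at 206 and 77 bases before the start of Slc1a2 and at 199 bases before the start of Hal. They were not in the windows of Glul and Axin2, nor in those of Nkd1 and Rnf43. Of all 32851 promoter windows in the table, 16% hold CTTTGA on either strand. A match is only a match of letters, and its absence says only that these letters are not in this window.

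None of the 9 genes passed the test in any comparison (limma with Benjamini-Hochberg adjustment over all 19087 genes, threshold 0.05). Over all genes, 0% passed for treated mutants over wild type, 0% for untreated mutants over wild type, 0% for treated over untreated mutants and 0.0105% for both mutant groups averaged over wild type. Of the 9, 3 genes (Rhbg, Axin2 and Glul) lay below 0 with an unadjusted p under 0.05 in treated mutants, where 3.37% of all genes did so. In untreated mutants Rhbg alone did, against 4.65% of all genes. Averaged over both mutant groups the same 3 genes did, against 5.3% of all genes. No member lay above 0 at that p in these 3 comparisons, where 3.73%, 3.14% and 4.54% of all genes did. Of the 9 genes, 8 had a mean below 0 in treated mutants (48.9% of all genes), 6 in untreated mutants (53.3%) and 8 in both averaged (51.9%), and 6 were lower in treated than in untreated mutants (46.3%). Rhbg and Axin2 lay below 0 on all 4 treated arrays, as 6.72% of all genes did, and Rhbg and Slc1a2 on all 4 untreated arrays, as 7.22% did. The median of the 8 pericentral genes was -0.19 in treated and -0.11 in untreated mutants, beside medians over all genes of 0.00 and -0.01. These counts and medians rest on the reading. With the swapped arrays turned, no member had an unadjusted p under 0.05 in treated mutants, where 5.38% of all genes were higher and 3.77% lower at that p. In untreated mutants Lgr5 was above 0 and Rnf43 below 0 at that p, where 5.77% of all genes were higher and 4.35% lower. In both averaged, Rhbg, Glul and Lgr5 were above 0 and Rnf43 below 0, where 8.5% were higher and 6.36% lower. Under that reading 2 of the 9 genes had a mean below 0 in treated mutants (53.2% of all genes), 4 in untreated mutants (51.4%) and 3 in both averaged (54.4%), and 2 were lower in treated than in untreated mutants (52.3%). The pericentral medians were then 0.16 in treated and 0.039 in untreated mutants.

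**Figure D1:**
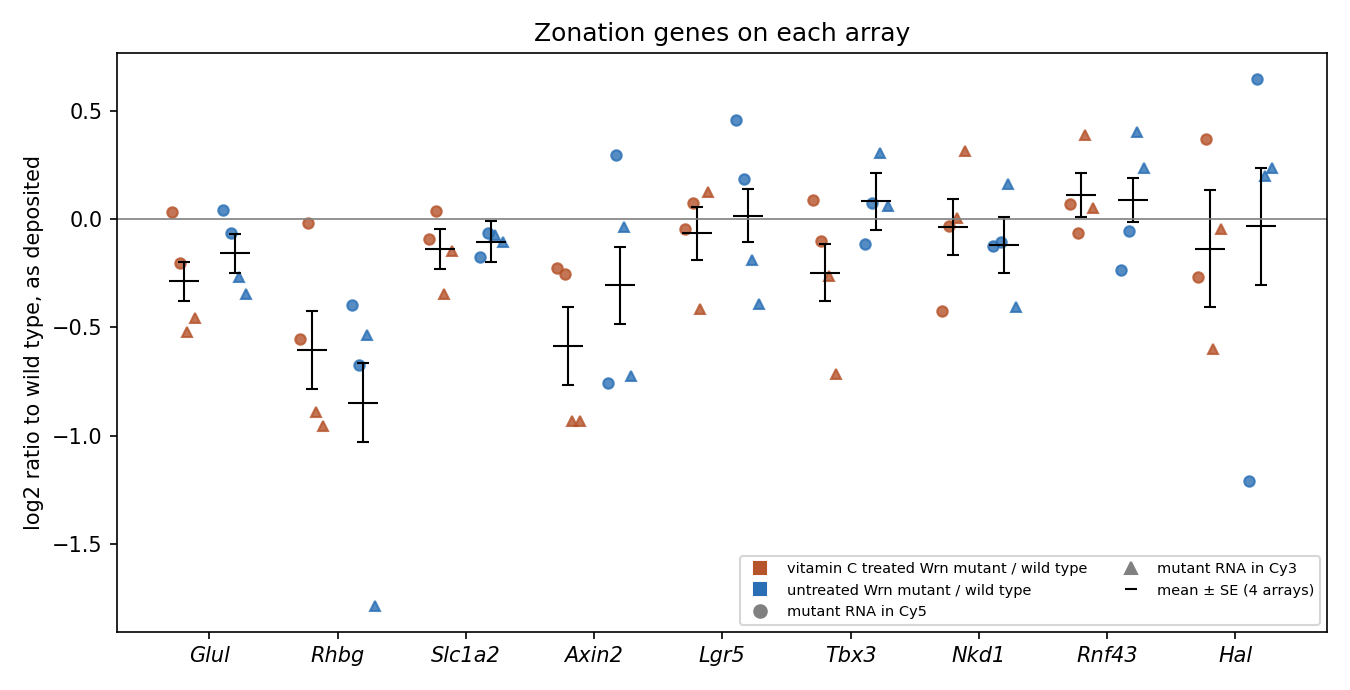
Log2 ratio to wild type of the 9 measured zonation genes on each array, as deposited (vertical axis), for vitamin C treated (left) and untreated (right) Wrn mutants, with circles where the mutant RNA was Cy5 and triangles where it was Cy3. Bars give the mean and its SE over 4 arrays. All 8 values of Rhbg lie below 0, and the groups overlap for every gene.

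Rhbg, the pericentral membrane channel through which ammonia enters hepatocytes, stood lowest. Its log2 ratios on replicates 1 to 4 were -0.55, -0.02, -0.89 and -0.95 in treated mutants. They were -0.40, -0.67, -0.53 and -1.78 in untreated mutants. All 8 arrays lay below 0, which 0.964% of all genes showed, although treated replicate 2 was close to 0 and untreated replicate 4 was far below the others. The mean was -0.60 ± 0.18 in treated mutants (SE, n = 4 arrays, limma adjusted p = 0.637) and -0.85 ± 0.18 in untreated mutants (SE, n = 4 arrays, limma adjusted p = 0.365). Averaged over both groups Rhbg was 1.65-fold lower than wild type, at -0.73 ± 0.13 (SE, n = 8 arrays, limma adjusted p = 0.132). As deposited 0.141% of all genes had a lower average, and under the turned reading, with Rhbg at 0.32, 5.02% had a higher one. The 4 arrays with the mutant in Cy5 averaged -0.41 and the 4 with the mutant in Cy3 averaged -1.04. Turning the swapped arrays gave averages of 0.32 in treated and 0.31 in untreated mutants.

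Glul encodes glutamine synthetase, which joins ammonia to glutamate and is confined to the last hepatocytes before the central vein. Its ratios, each the mean of 3 features, were 0.03, -0.20, -0.52 and -0.46 on the treated arrays and 0.04, -0.06, -0.27 and -0.34 on the untreated ones. Replicate 1 lay just above 0 in both groups and the other arrays below it, and the groups overlapped. The means were -0.29 ± 0.09 (limma adjusted p = 0.637) in treated and -0.16 ± 0.09 (limma adjusted p = 0.709) in untreated mutants. The ratio was near 0 where the mutant RNA was Cy5, at an average of -0.05 over 4 arrays, and -0.40 where it was Cy3. With the swapped arrays turned, Glul stood at 0.20 in treated and 0.15 in untreated mutants.

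The 3 features of Glul did not behave alike. Feature 1 read -0.10, -0.43, -0.63 and -0.56 on the treated arrays and 0.04, -0.52, -0.37 and -0.76 on the untreated ones, so 7 of its 8 values lay below 0. Fitted on its own among all features, a choice made after its values were seen, it averaged -0.42 ± 0.09 over both groups (SE, n = 8 arrays, limma adjusted p = 0.214). Features 2 and 3, which share an annotated transcript, averaged -0.02 ± 0.10 and -0.23 ± 0.10. Feature 3 reached -1.21 on treated replicate 3 and 0.48 on untreated replicate 1. The feature averages thus ran from -0.42 to -0.02.

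Slc1a2 encodes the glutamate transporter GLT-1, which brings glutamate to the pericentral cells that hold glutamine synthetase. Averaged over 5 features, it read -0.09, 0.04, -0.35 and -0.15 on the treated arrays and -0.17, -0.06, -0.08 and -0.10 on the untreated ones. By small amounts, 7 of the 8 values lay below 0, and at least as many such values were found for 4.95% of all genes. The means were -0.14 ± 0.09 in treated and -0.10 ± 0.09 in untreated mutants (SE, n = 4 arrays each, limma adjusted p = 0.826 in both). Feature 3 stood apart as deposited, and was singled out after its values were seen. It read 0.14, 0.17, -0.73 and -0.70 on the treated arrays and -0.61, -0.45, -0.40 and -0.85 on the untreated ones. In untreated mutants it averaged -0.58 ± 0.14 (SE, n = 4 arrays, limma adjusted p = 0.501), while the other 4 features lay between -0.10 and 0.12. Once the swapped arrays were turned, the gene stood at 0.11 in treated and -0.01 in untreated mutants.

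**Figure D2:**
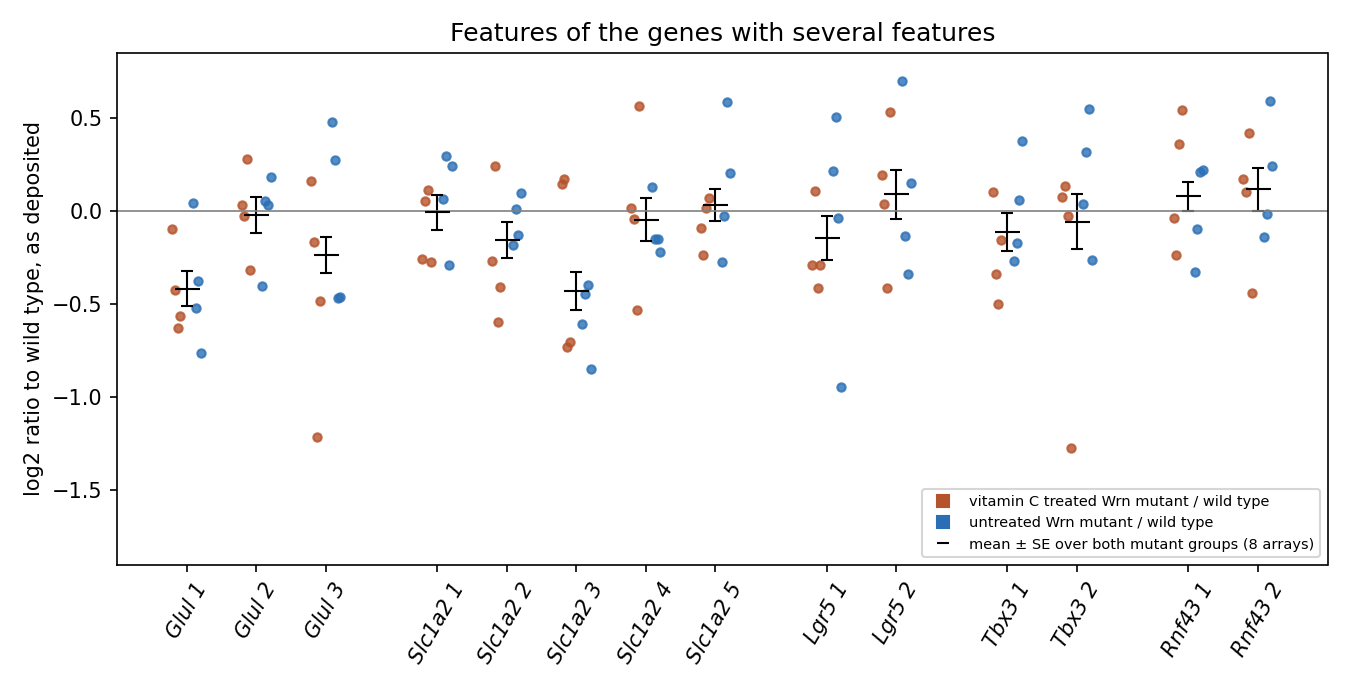
Log2 ratio to wild type of each feature of the 5 genes that have several (vertical axis), on the 4 treated (left points) and 4 untreated (right points) mutant arrays, with the mean and SE over all 8 arrays in black. As deposited, feature 1 of Glul averages -0.42 and feature 3 of Slc1a2 -0.43, while their other features lie between -0.23 and 0.03.

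Axin2, a scaffold of the complex that degrades beta-catenin and a widely used Wnt target, had the lowest average after Rhbg as deposited. Its single feature read -0.23, -0.26, -0.93 and -0.93 on the treated arrays and -0.76, 0.29, -0.04 and -0.73 on the untreated ones. The treated arrays split by dye orientation, with a mean of -0.24 where the mutant RNA was Cy5 and -0.93 where it was Cy3. The untreated arrays spread on both sides of 0. The mean was -0.59 ± 0.18 in treated mutants (SE, n = 4 arrays, limma adjusted p = 0.637). It was -0.31 ± 0.18 in untreated mutants (SE, n = 4 arrays, limma adjusted p = 0.714). The untreated value was -0.04 without untreated replicate 1 and -0.46 without untreated replicate 2, so single arrays set its size. Under the turned reading Axin2 stood at 0.35 in treated and 0.07 in untreated mutants.

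Rnf43, a ubiquitin ligase that removes Wnt receptors from the membrane, read 0.07, -0.07, 0.39 and 0.05 on the treated arrays and -0.23, -0.06, 0.40 and 0.23 on the untreated ones. Its means were 0.11 ± 0.10 and 0.09 ± 0.10 (SE, n = 4 arrays each), with values above 0 on the 4 arrays where the mutant RNA was Cy3. Nkd1, an inhibitor that binds Dishevelled, read -0.43, -0.03, 0.00 and 0.31 on the treated arrays and -0.12, -0.11, 0.16 and -0.41 on the untreated ones. Its means of -0.04 ± 0.13 and -0.12 ± 0.13 were within the spread of the arrays. Nkd1 shares chromosome 8 with Wrn but lies 364 measured genes from it. Lgr5, the Rspondin receptor, read -0.05, 0.07, -0.41 and 0.12 on the treated arrays and 0.46, 0.19, -0.19 and -0.39 on the untreated ones, with means of -0.07 ± 0.12 and 0.01 ± 0.12. Under the turned reading, the treated and untreated means were -0.11 and -0.23 for Rnf43, -0.19 and 0.00 for Nkd1, and 0.08 and 0.31 for Lgr5. None of these passed.

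Tbx3, a transcription factor of the pericentral programme, was the gene with the lowest treated values relative to untreated ones. It read 0.09, -0.10, -0.26 and -0.71 on the treated arrays and -0.11, 0.07, 0.30 and 0.06 on the untreated ones. On 3 of the 4 replicate numbers the treated array was the lower as deposited, but turning reverses the order on replicates 3 and 4. Its means were -0.25 ± 0.13 in treated and 0.08 ± 0.13 in untreated mutants, a difference of -0.33 ± 0.19 (limma adjusted p = 0.974). The lowest treated value came from 1 of its 2 features, which read -1.27 on treated replicate 4 while the other read -0.15. Without treated replicate 4 the treated mean was -0.09. Turning the swapped arrays put Tbx3 at 0.24 in treated and -0.10 in untreated mutants.

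On the periportal side, Hal encodes histidine ammonia-lyase, which opens the breakdown of histidine. It read -0.27, 0.37, -0.60 and -0.05 on the treated arrays and -1.21, 0.64, 0.20 and 0.23 on the untreated ones. Its values ran to both sides of 0 in both groups, and no other of the 9 genes spread as widely over the untreated arrays. The means were -0.14 ± 0.27 in treated and -0.03 ± 0.27 in untreated mutants (SE, n = 4 arrays each). Without untreated replicate 1 the untreated mean was 0.42. Under the turned reading the means were 0.19 and -0.25.

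As deposited, treated and untreated mutants overlapped for all 9 genes, where 2.24% of all genes had groups that did not overlap. No gene differed between them at an unadjusted p under 0.05, where 2.37% of all genes were higher and 1.91% lower in treated mutants. For Rhbg the difference of treated minus untreated was 0.24 with a 95% interval of -0.33 to 0.82, for Axin2 -0.28 (-0.85 to 0.29) and for Glul -0.13 (-0.41 to 0.16). The intervals of the other 6 genes also include 0. The widest, that of Hal, ran from -0.96 to 0.76, and the narrowest, that of Glul, still allowed a difference of 0.41 on the log2 scale. For Glul, treated replicates were the lower on 4 of 4 replicate numbers.

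**Figure D3:**
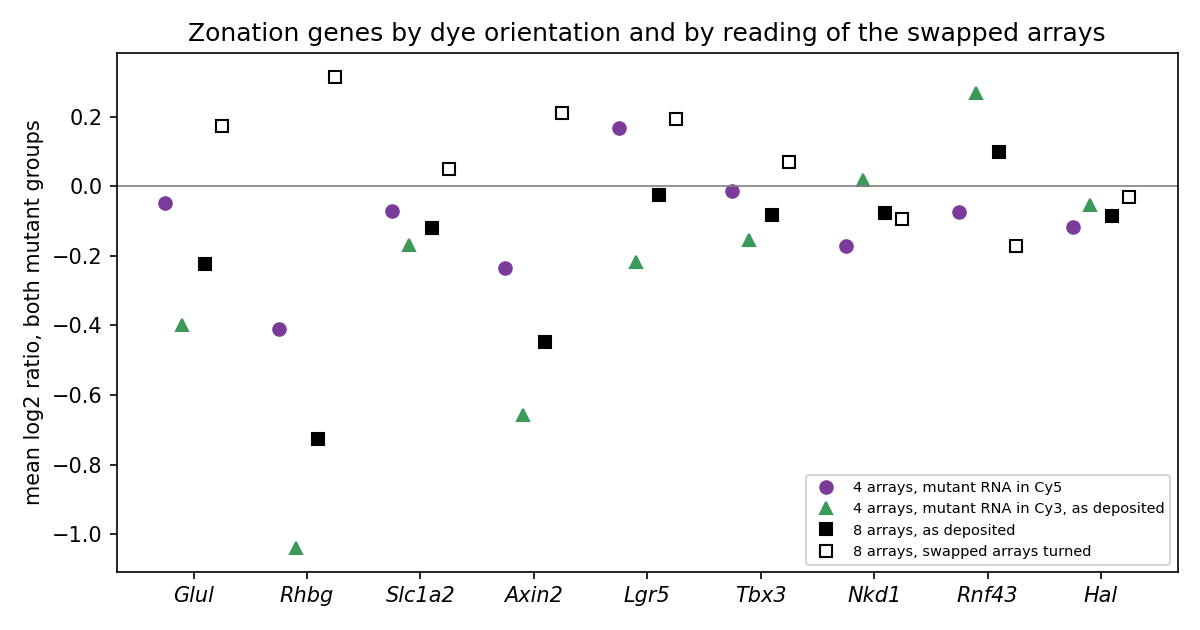
Mean log2 ratio of both mutant groups for each gene (vertical axis), on the 4 arrays with mutant RNA in Cy5, the 4 arrays with mutant RNA in Cy3, all 8 arrays as deposited, and all 8 arrays with the swapped ones turned. Rhbg and Axin2 lie below 0 in both dye orientations as deposited, at -0.41 and -1.04 and at -0.24 and -0.66, and above 0 once the swapped arrays are turned.

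The dye orientation moved with these values. As deposited and averaged over both groups, Glul, Rhbg, Axin2, Lgr5, Slc1a2 and Tbx3 were lower on the arrays with the mutant in Cy3, and Rnf43, Nkd1 and Hal on those with the mutant in Cy5. Within each group Glul, Rhbg, Axin2, Lgr5 and Rnf43 had the same order, while Slc1a2, Tbx3 and Nkd1 had it in treated mutants only and Hal in untreated mutants only. The dye coefficient was 0.32 ± 0.13 for Rhbg (adjusted p = 0.282), 0.17 ± 0.06 for Glul (adjusted p = 0.228) and -0.17 ± 0.07 for Rnf43 (adjusted p = 0.294). For each gene this coefficient is the same number as the turned average over both groups. Under the turned reading it is therefore the mutant over wild type value, and the 2 cannot be told apart here. None of the 9 genes passed for it, where 1.94% of all genes did. As deposited, markers of liver cell types moved with the arrays too. Replicates 3 and 4 are the swapped arrays, so turning reverses the sign of every marker and pericentral median on them. The median of 4 hepatocyte markers was -0.03, 0.23, -0.35 and -0.34 on treated replicates 1 to 4 and 0.08, 0.24, -0.24 and -0.22 on untreated ones. The median of the 8 pericentral genes was -0.07, -0.05, -0.38 and -0.30 on the treated and -0.15, -0.06, -0.06 and -0.37 on the untreated arrays. The median of 6 Kupffer cell and macrophage markers was 1.29, 1.19, -2.01 and 2.22 on treated and 1.21, 1.11, -1.95 and 0.37 on untreated arrays. The 9 endothelial markers had medians of 0.02, 0.07, -0.16 and 0.55 on treated and 0.14, 0.04, -0.33 and -0.24 on untreated arrays. Medians over the 8 arrays ran from -0.60 to 0.65 for 3 cholangiocyte markers, from -0.31 to 0.21 for 6 stellate cell markers and from -0.43 to 0.63 for 4 lymphocyte markers. The part of dye orientation and cell types in the values of the zonation genes was not tested.

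**Figure D4:**
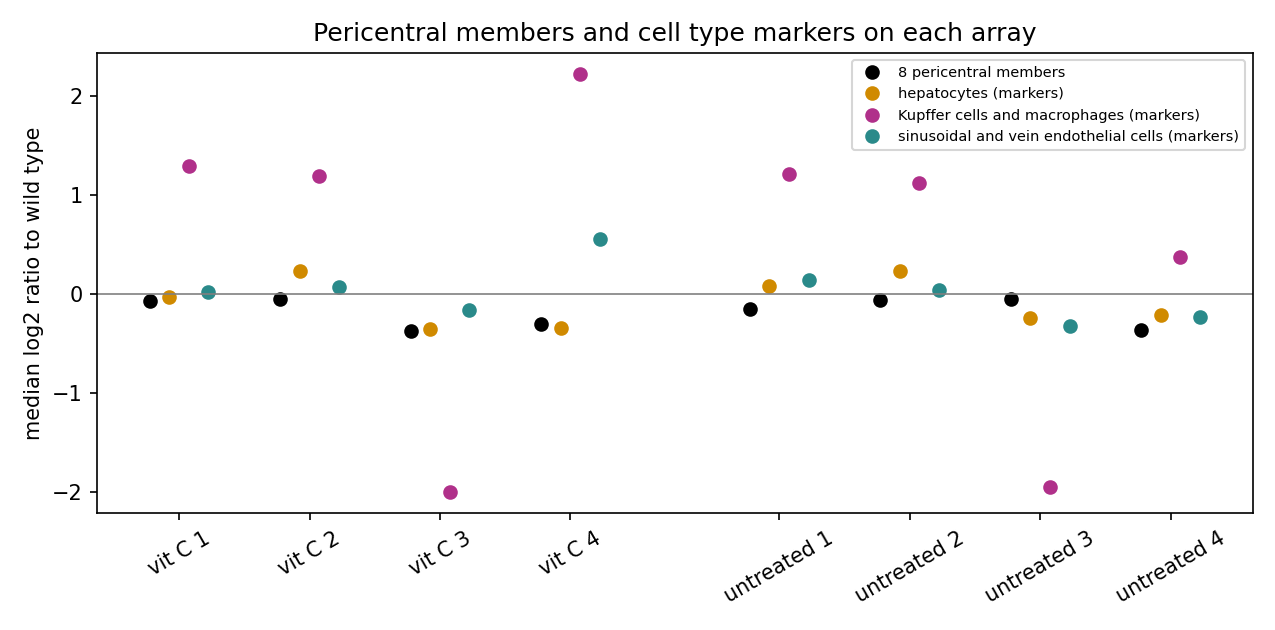
Median log2 ratio to wild type on each array (vertical axis) of the 8 pericentral genes and of the markers of hepatocytes, Kupffer cells and macrophages, and endothelial cells, with treated arrays on the left and untreated ones on the right. The macrophage markers lie near -2 on replicate 3 of both groups (-2.01 and -1.95) and above 0 on the other arrays, while the pericentral median stays between -0.38 and -0.05.

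Genes upstream of the zonation genes were read from lists of the pathway. As deposited, no gene of any list passed in any comparison, and list counts and values are as deposited unless called turned. With the swapped arrays turned, 309 of all genes passed in both groups averaged. Among them were the pericentral Aldh3a2 (1.08), Cyp2e1 (1.03), Oat (0.99), Cyp2c29 (0.95) and Rnase4 (0.81), and the periportal Pigr (0.78) and Pck1 (0.53). Counts at an unadjusted p under 0.05 are to be read against shares of all genes of 3.73% higher and 3.37% lower in treated mutants and 3.14% higher and 4.65% lower in untreated ones. None of the 6 Wnt ligands and Rspondins had an unadjusted p under 0.05. Wnt2, a ligand from central vein and sinusoidal endothelium, stood at -0.30 ± 0.14 in untreated mutants, at -0.14 without untreated replicate 4 and at 0.27 under the turned reading. Wnt4 stood at -0.35 ± 0.19 in treated mutants, at -0.15 without treated replicate 2 and at -0.14 turned. Rspo1 stood at 0.24 ± 0.12 in treated and 0.08 ± 0.12 in untreated mutants, and at -0.14 and -0.20 turned. For Rspo3, the Rspondin of the central vein, the treated minus untreated difference was 0.37 ± 0.34. It was -0.06 without treated replicate 4, which read 1.36, and -0.46 turned. The 9 genes of Wnt receptors and their turnover had medians of -0.06 in treated and 0.03 in untreated mutants, with no unadjusted p under 0.05 in either group. The co-receptor gene Lrp5 stood at -0.19 ± 0.13 in treated and -0.27 ± 0.13 in untreated mutants, and at -0.25 and -0.24 turned. Averaged over both groups it was the 1 gene of the list with an unadjusted p under 0.05, at -0.23 ± 0.09 (limma adjusted p = 0.443), where 5.3% of all genes were lower at that p. Its treated value was -0.04 without treated replicate 1. Among the receptors of the Frizzled family, Fzd7 stood at -0.19 ± 0.18 in treated and Fzd5 at 0.17 ± 0.13 in untreated mutants, and Fzd1 was -0.20 ± 0.16 in treated minus untreated. Turned, these values were 0.03, -0.32 and 0.31. Fzd7 was -0.07 without treated replicate 1, Fzd5 was 0.03 without untreated replicate 3, and the difference of Fzd1 was -0.09 without untreated replicate 4.

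Of 17 measured genes of beta-catenin, its destruction complex and TCF factors, 1 was higher and 1 lower at an unadjusted p under 0.05 in treated mutants, and 1 was lower in untreated ones, beside all-gene shares of 3.73%, 3.37% and 4.65%. They were Axin1, the constitutive relative of Axin2, at 0.27 ± 0.11, the kinase gene Csnk1a1 at -0.26 ± 0.11, and Dvl3, a Dishevelled gene, at -0.63 ± 0.26. Without untreated replicate 4 Dvl3 stood at -0.19. Under the turned reading Axin1 stood at 0.06, Csnk1a1 at -0.13 and Dvl3 at 0.32. Ctnnb1, which encodes beta-catenin and had 12 features, stood at 0.15 ± 0.09 in untreated mutants and at 0.035 turned. Gsk3a differed by 0.51 ± 0.26 and Axin1 by 0.35 ± 0.16 in treated minus untreated mutants, and by 0.42 and -0.15 turned. Without treated replicate 1 the difference of Gsk3a was 0.24, and without untreated replicate 4 that of Axin1 was 0.21. Of 13 Wnt antagonists and feedback genes, 1 was higher in treated and 1 lower in untreated mutants at that p (3.73% and 4.65% of all genes). Dkk4, a secreted Wnt antagonist that is itself a target, read -0.04, 0.26, 0.85 and 0.24 on the treated arrays and -0.70, -0.03, -0.34 and -0.14 on the untreated ones. It lay above 0 on 3 of 4 treated arrays and below 0 on 4 of 4 untreated ones, with the lowest treated value inside the untreated range. The difference was 0.63 ± 0.21 (limma adjusted p = 0.974), and -0.16 under the turned reading. Notum, an enzyme that inactivates Wnt ligands, stood at -0.51 ± 0.19 in untreated mutants, and at 0.19 under the turned reading and -0.27 without untreated replicate 4. Sp5, a transcription factor induced by Wnt, stood at -0.27 ± 0.17 in treated mutants and at -0.40 turned. The secreted antagonist Wif1 was 0.30 ± 0.15 in treated minus untreated and 0.20 turned.

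**Figure D5:**
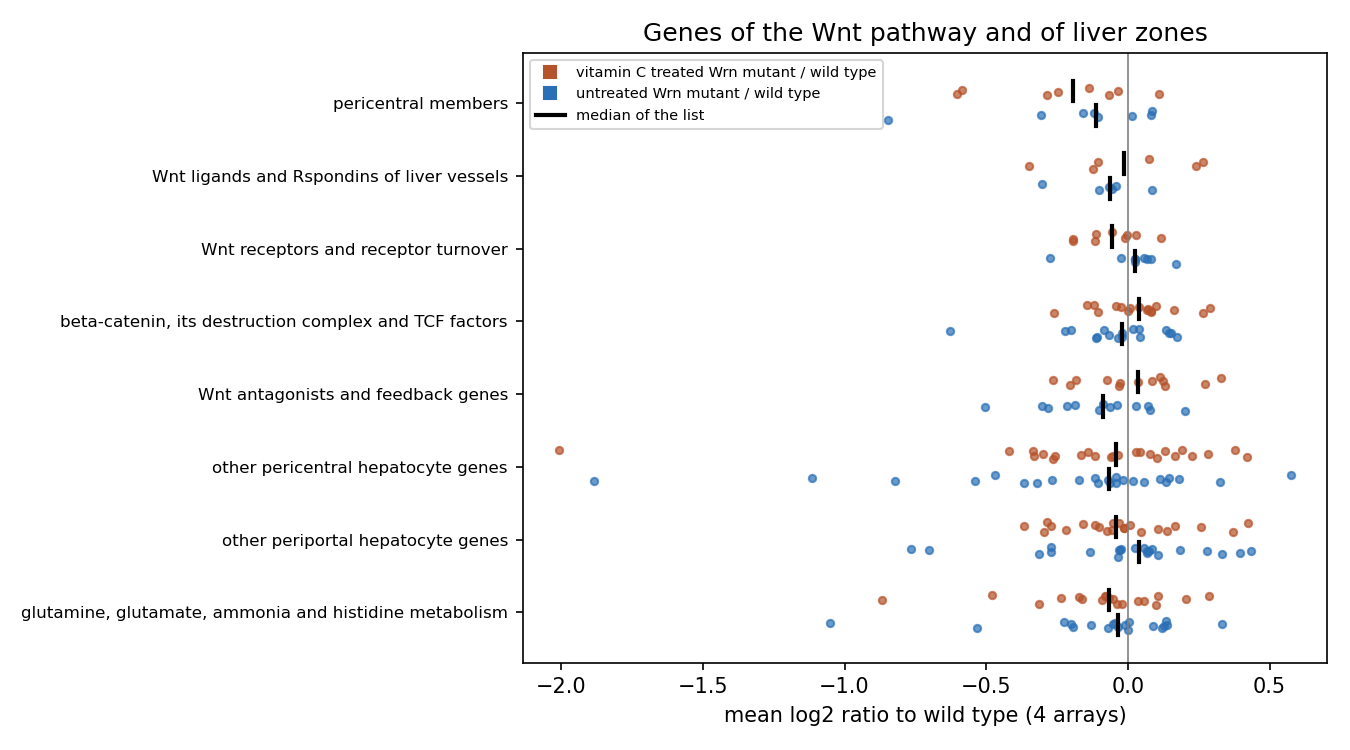
Mean log2 ratio to wild type over 4 arrays (horizontal axis) of each gene in the lists, for treated (upper points) and untreated (lower points) mutants, with the median of each list as a black bar. Values are as deposited, where list medians lie between -0.19 and 0.04 and no gene passed the test.

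As deposited, other genes of the same zones did not share one direction. Of 24 measured pericentral genes outside the group, 2 were lower and 1 higher at an unadjusted p under 0.05 in treated mutants, and 4 were lower and 2 higher in untreated ones. Of all genes 3.37% were lower and 3.73% higher in treated, and 4.65% lower and 3.14% higher in untreated mutants. With the swapped arrays turned, 7 of the 24 were higher and 1 lower in treated and 7 higher and 0 lower in untreated mutants. Under that reading 5.38% of all genes were higher and 3.77% lower in treated, and 5.77% higher and 4.35% lower in untreated mutants. As deposited their medians were -0.04 in treated and -0.07 in untreated mutants. The lowest was Cyp7a1, the rate-limiting enzyme of bile acid synthesis, at -2.01 ± 0.37 in treated mutants (limma adjusted p = 0.375), with all 8 arrays of both groups below 0. Cyp8b1, which sets the share of cholic acid, stood at -0.30 ± 0.39 in treated and -1.89 ± 0.39 in untreated mutants (limma adjusted p = 0.907 and 0.365). Blvrb, a biliverdin reductase gene, stood at 0.38 ± 0.10 in treated mutants (limma adjusted p = 0.610). Under the turned reading Cyp7a1 stood at -0.45 in treated mutants, Cyp8b1 at 0.30 in untreated mutants and Blvrb at -0.13 in treated mutants. Without untreated replicate 4 Cyp8b1 stood at -1.25. In treated minus untreated mutants, 3 of the 24 were higher and 0 lower at an unadjusted p under 0.05, beside 2.37% and 1.91% of all genes. Turned, 0 were higher and 0 lower. Cyp8b1 differed by 1.58 ± 0.56 and Blvrb by 0.45 ± 0.14 (limma adjusted p = 0.974 for each), and by -0.68 and -0.14 turned. The difference of Cyp8b1 was 0.95 without untreated replicate 4.

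Oat, the ornithine aminotransferase of pericentral cells, split by dye orientation. It read 0.43, 0.81, -1.07 and -1.51 on the treated arrays and 0.32, 0.06, -1.53 and -2.15 on the untreated ones. Every array with the mutant in Cy5 lay above 0 and every array with the mutant in Cy3 below it. Its untreated mean of -0.82 ± 0.13 became 1.02 with the swapped arrays turned. Of 22 measured periportal genes besides Hal, 1 was lower in treated mutants, and 3 were lower and 1 higher in untreated mutants at an unadjusted p under 0.05, beside all-gene shares of 3.37%, 4.65% and 3.14%. Turned, 7 were higher and 0 lower in treated and 4 higher and 2 lower in untreated mutants. The turned all-gene shares were 5.38% higher and 3.77% lower in treated, and 5.77% higher and 4.35% lower in untreated mutants. The medians as deposited were -0.04 and 0.04. Aldh1b1 stood at -0.37 ± 0.15 and the urea cycle gene Otc at -0.27 ± 0.13 in treated mutants, and at 0.39 and 0.33 turned. Aldh1b1 was -0.16 without treated replicate 3 and Otc -0.17 without treated replicate 4. Igfbp2, an IGF binding protein gene, stood at -0.70 ± 0.21 and the urea cycle gene Asl at -0.76 ± 0.27 in untreated mutants, and at -0.59 and -0.12 turned. Without untreated replicate 1 they stood at -0.46 and -0.42, and Asl at -1.19 without untreated replicate 2.

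Genes of glutamine, glutamate, ammonia and histidine metabolism surround Glul, Rhbg and Slc1a2. Of the 19 measured, 4 were lower and 0 higher at an unadjusted p under 0.05 in treated mutants, and 2 were lower and 1 higher in untreated ones. Of all genes 3.37% were lower and 3.73% higher in treated, and 4.65% lower and 3.14% higher in untreated mutants. With the swapped arrays turned, 2 of the 19 were higher and 0 lower in treated mutants, and 0 had such a p in untreated ones. Of all genes, 5.38% were then higher and 3.77% lower in treated, and 5.77% higher and 4.35% lower in untreated mutants. Slc38a3, the glutamine transporter SNAT3 of hepatocytes, read -0.20, -0.32, -0.70 and -0.70 on the treated arrays and -0.90, -0.21, -0.32 and -0.69 on the untreated ones. Like Rhbg it lay below 0 on all 8 arrays. Its means were -0.48 ± 0.14 and -0.53 ± 0.14 (SE, n = 4 arrays each, limma adjusted p = 0.610 and 0.456). Once the swapped arrays were turned, they were 0.22 and -0.02, and without untreated replicate 1 the untreated mean was -0.34. Got1, the cytosolic aspartate aminotransferase, stood at -0.87 ± 0.30 in treated and -1.05 ± 0.30 in untreated mutants (limma adjusted p = 0.677 and 0.525), and at 0.16 and -0.12 under the turned reading. Nags, which makes the activator of the urea cycle's first enzyme, also lay below 0 on all 8 arrays, by small amounts of -0.16 ± 0.11 and -0.22 ± 0.11 (0.03 and -0.11 turned), and was singled out after its values were seen. In treated minus untreated mutants the glutamate transporter gene Slc1a3 stood at -0.37 ± 0.14 and the glutamate dehydrogenase gene Glud1 at -0.26 ± 0.16, and at 0.21 and 0.15 turned.

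The genes whose dye-corrected values over the 8 arrays were most like those of Glul, by Pearson's r among 19086 other genes, were Smchd1, Pik3r1 and Cd209a, all with r = 0.976. Spearman's rho was 0.98, 1 and 1, and r without the 2 arrays farthest from the median of Glul was 0.92, 0.93 and 0.96. On the values as deposited r was 0.44 for Smchd1, 0.95 for Pik3r1 and -0.01 for Cd209a. With the swapped arrays turned it was 0.10 for Smchd1, -0.20 for Pik3r1 and 0.79 for Cd209a. If the turned reading holds, the dye correction takes out the average mutant over wild type value. The arrays share a wild type number in pairs and these genes are the highest of many, so r is given as a description only. Wrn itself stood at 0.16 ± 0.10 in treated and 0.19 ± 0.10 in untreated mutants (SE, n = 4 arrays each), and at 0.03 and 0.02 turned. No source used here places its features against the mutated stretch, so Wrn checks no label.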

How the data were processed

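Liver RNA of 8 mutant mice was compared with wild type liver RNA on 2-colour arrays. The authors deposited 1 table of log ratios, taken as log2 values. Limma is listed in the submitters' processing notes. How background was corrected, how arrays were normalized, and which log base and direction apply is not given in the sources read here. No build is named, so the RefSeq table of GRCm38 served for names and gene order, and RefSeq promoter windows of that build for sequence. GEO's platform annotation gave 33653 features 1 symbol, left 11511 without any and listed several for 56. Features of a gene were averaged, giving 19087 genes.

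One model over all 8 arrays, with group means and a dye term, was fitted to all genes in limma 3.58.1 (lmFit, then eBayes; R 4.3.3; 5 residual degrees of freedom). SEs are the fit's moderated ones. The threshold was 0.05 on p-values adjusted after Benjamini and Hochberg over all genes. The fit was also run on simulated data with independent arrays and a known dye sign. That run could not test the effect of shared wild type animals or of the unsettled sign. The members, gene lists and reading of the swapped arrays were chosen with earlier results of these data known. Named besides the members are at most 2 genes of smallest p per list and comparison, the 3 genes most like Glul, and Wrn. List genes that passed with the swapped arrays turned are named too. Planned likeness for Gls2 was not run, as it has no feature. In 2011 genes with 2 features of different accessions, features agreed at r = 0.22 for the mean over arrays as deposited and r = 0.15 for the dye term.

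The wild type number was taken to mark which arrays share wild type animals, but the main fit had no term for it. The SEs and p-values of the main fit therefore treat all arrays as independent. A replicate block by wild type number was used only among the alternatives. Same-numbered arrays deviated together from their group means (r = 0.32 to 0.51, and 0.00 to 0.24 once the dye coefficient was removed).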

Additional observations from a re-analysis of the deposited data

Results flagged for a closer look

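In groups of 4 arrays, a highest or lowest array far from the other 3 was looked for by Dixon's test in 78 sets of values, and 3 were found, where chance gives about 1 in 20. None was a member of the group. Csnk1a1 read 0.088 on treated replicate 4, above the other treated arrays. Sp5 read -1.14 on untreated replicate 1, and Cyp7a1 read -3.52 on treated replicate 1, both below the other arrays of their group.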

How the results depend on the processing

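None of the 9 genes passed in any comparison under any of the 19 or 20 alternatives, and the lowest adjusted p reached was 0.0780 for Rhbg over both groups when the 2 arrays with wild type number 3 were dropped (dropping number pairs was added after the data were seen). Turning the swapped arrays gave pericentral medians of 0.16 in treated mutants, 0.039 in untreated mutants and 0.12 in both averaged, where the deposited reading gave -0.19, -0.11 and -0.10. Under the other alternatives these medians moved by less than the spread between arrays. Leaving out 1 array, or both of a number, gave pericentral medians of -0.24 to -0.17 in treated, -0.16 to -0.04 in untreated, -0.13 to 0.00 in treated minus untreated and -0.14 to -0.09 in both averaged. For Hal, the only periportal gene measured, the ranges were -0.42 to 0.06, -0.37 to 0.45, -0.56 to 0.18 and -0.40 to 0.23. Rhbg ranged from -0.71 to -0.50 in treated and from -1.11 to -0.59 in untreated mutants, Glul from -0.35 to -0.24 and from -0.19 to -0.12, and Axin2 from -0.67 to -0.51 and from -0.50 to -0.04. With the wild type number as a replicate block (correlation 0.129), 0 members passed, Rhbg over both groups had an adjusted p of 0.207, and the 2 genes called among all genes in that comparison were no longer called. A fixed replicate block for treated minus untreated mutants also called 0 genes. Over all genes in both groups averaged, 309 passed with the swapped arrays turned, 16 with arrays scaled to one spread, 5 with robust moderation, 17 without number 2, 67 without number 4, and 0 to 4 with other arrays left out. In treated mutants 10 passed with the swapped arrays turned, 3 without treated replicate 2, and 6, 1 and 8 without numbers 2, 3 and 4. In untreated mutants 9 passed with the swapped arrays turned, and 1 and 15 without numbers 2 and 4. The cause of these shifts was not tested. Signal over background is unknown, since no intensities were given.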

Other observations

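Among the 19086 other genes, the one whose dye-corrected values were most like those of Rhbg was Wnt2, the ligand made by central vein and sinusoidal endothelium. This was noticed after the values were seen. Wnt2 read 0.04, 0.31, -0.33 and -0.44 on treated replicates 1 to 4 and 0.14, -0.21, -0.16 and -0.99 on untreated ones. As deposited, both genes were highest on treated replicate 2 and lowest on untreated replicate 4. Over the 8 arrays Pearson's r was 0.98 after dye correction, 0.98 as deposited and 0.90 with the swapped arrays turned, and Spearman's rho after dye correction was 0.98. Without the 2 arrays farthest from the median of Rhbg, r was 0.94. An r of this size was usual for a closest gene. Over the measured members, the closest gene had an r from 0.97 (Olfr1158 for Tbx3) to 0.99 (Scube2 for Lgr5). The next closest gene to Rhbg, 4933439C10Rik, had an r of 0.97. The arrays share wild type RNA in pairs and Wnt2 was picked as the highest of many, so this is a description. A link between Wnt2 and Rhbg was not tested. In the lists, Wnt2 itself did not pass, at -0.20 ± 0.10 over both groups (SE, n = 8 arrays, limma adjusted p = 0.536). Wnt2 is not a member of the group. Of the other measured members none had an absolute r above 0.76 with Rhbg, the closest being Nkd1 at 0.76. They are few beside the 19086 genes from which Wnt2 was picked.

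Cyp2e1, another pericentral gene that depends on beta-catenin, read 0.67, 1.27, -0.85 and -0.77 on treated and 0.57, 1.42, -0.67 and -2.01 on untreated arrays. As for Oat, every array with the mutant in Cy5 lay above 0 and every array with the mutant in Cy3 below it. It was chosen after its values were seen. Its means were 0.08 ± 0.22 in treated and -0.17 ± 0.22 in untreated mutants as deposited, and 0.89 and 1.17 with the swapped arrays turned.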
